A study of Mus musculus with 12 samples.

Results

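Fatty acid oxidation and ketone metabolism are described here through 33 named genes of the mitochondrial and peroxisomal beta-oxidation enzymes, the carnitine shuttle, 2 acyl-CoA thioesterases, the ketone body enzymes and the kinase Pdk4. They were chosen by name, with earlier results of these data known. A gene was read wherever the array annotation gave a probe set its symbol alone, which held for 31 of the 33 genes with 55 of 45037 probe sets, out of 18193 genes on the arrays. Cpt1b, the muscle isoform of carnitine palmitoyltransferase 1, is named only on a probe set that lists several genes, and Acsl1 was not matched, so neither is reported. RNA came from M. vastus lateralis muscle, gonadal white adipose tissue (WAT) and liver of 12-week-old female Ghsr-/- mice on the C57BL/6 strain, fed chow ad libitum. They received 20 nmol/kg of unacylated ghrelin (UAG) in saline or saline alone by intraperitoneal injection, and tissues were taken 6 h later. Each of the 6 groups, UAG and saline in muscle, WAT and liver, had 2 Affymetrix arrays of the whole mouse genome, 12 in all. Every animal, controls included, lacked the ghrelin receptor GHSR, so there was no wild type group, and the labels do not tie the arrays of different tissues to a mouse.

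Fatty acids are burned in mitochondria after the carnitine shuttle has carried them across the inner membrane. There the acyl-CoA dehydrogenases start each round of beta-oxidation, electron transfer flavoprotein takes the electrons to the respiratory chain, and a hydratase, a dehydrogenase and a thiolase complete the round. Peroxisomes shorten very long and branched chains with their own enzymes. Liver turns part of the acetyl-CoA into ketone bodies, which it exports and lacks the enzyme to use, while muscle takes them up as fuel.

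Levels are probe set intensities in arbitrary units, returned from the deposited log2 scale. A level of one gene cannot be set against that of another, since each probe set has its own response. Differences are given on the log2 scale ± SE with values below 30 set to 30, adjusted p-values are those of limma after the Benjamini-Hochberg procedure across every probe set in a fit, and a gene was read from its probe set with the highest mean. These RNAs come from whole tissue, in which fewer cells of a type and less RNA per cell cannot be told apart.

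The tissues were told apart by their marker genes, and several arrays carried marker RNA of other cell types. Arrays of the same tissue correlated at 0.938 to 0.951 in muscle, 0.951 to 0.962 in WAT and 0.925 to 0.946 in liver. The 8 skeletal muscle markers summed to 108447 to 112395 in muscle, 858 to 3941 in WAT and 129 to 298 in liver, and all 8 passed the test as higher in muscle than in WAT. Albumin (Alb) read 10618 to 15547 in liver and 115 to 219 in WAT, and 6 of the 7 hepatocyte markers passed as lower in WAT than in liver, with Cyp2e1, at 12825 to 16072 in WAT and 13242 to 18685 in liver, the exception. The 5 adipocyte markers summed to 23455 to 35699 in muscle, 41675 to 51570 in WAT and 445 to 556 in liver, and the adipokine Adipoq read 7674 to 11936 in muscle. Brown adipocyte markers set the first saline array of WAT apart. The sum of 9 such genes was 4240 and 2077 in UAG WAT, against 20724 and 3042 in saline WAT, and 14874 to 22765 in muscle, where Cox7a1 and Cox8b of that list are also muscle genes. Ucp1, the brown fat uncoupling protein, read 1677 and 503 in UAG WAT, against 6772 and 702 in saline WAT, and Zic1 stayed below 30 on all 4 WAT arrays. The same array had the highest summed skeletal muscle markers of WAT, 3941 against 858 to 1620 on the other 3, and the second saline array had the highest smooth muscle markers, 27767 against 4672 to 4790.

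All 6 peroxisomal genes and the ketone enzymes Bdh1 and Acat1 were lower in muscle and in WAT than in liver, and Oxct1 and Pdk4 were far higher in muscle and WAT than in liver. In muscle against liver, 4 of the 31 genes passed an adjusted p of 0.05 as higher and 15 as lower, where 35.2% of all 12594 genes tested were higher and 31.1% lower. In WAT against liver 3 were higher and 16 lower, with 35.6% and 27.3% over all genes. Between muscle and WAT 7 were higher and 7 lower in muscle, with 23.0% and 32.9% over all genes. The median log2 difference of the 31 genes was -0.20 in muscle against liver (all genes 0.05), -0.39 in WAT against liver (all genes 0.08) and -0.09 in muscle against WAT (all genes -0.10). Under each of 23 other settings 15 of the 19 genes called in muscle against liver, 14 of the 19 in WAT against liver and 6 of the 14 in muscle against WAT passed the test in the same direction, the last being Bdh1 and Pdk4, higher in muscle, and Cpt1a, Decr2, Hsd17b4 and Acaa1b, lower in muscle. For muscle against WAT single arrays mattered, with 8 genes called without the second UAG array of WAT and 9 without the first UAG array of muscle, and the genes called higher in WAT than in liver numbered 8 without the second saline array of WAT. These tests average over treatment, 4 arrays a tissue, and treat the tissues as separate animals, since nothing in the labels says which arrays share a mouse. By the number of mice in the methods the tissues probably share animals, and these tests leave that out.

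**Figure D1:**
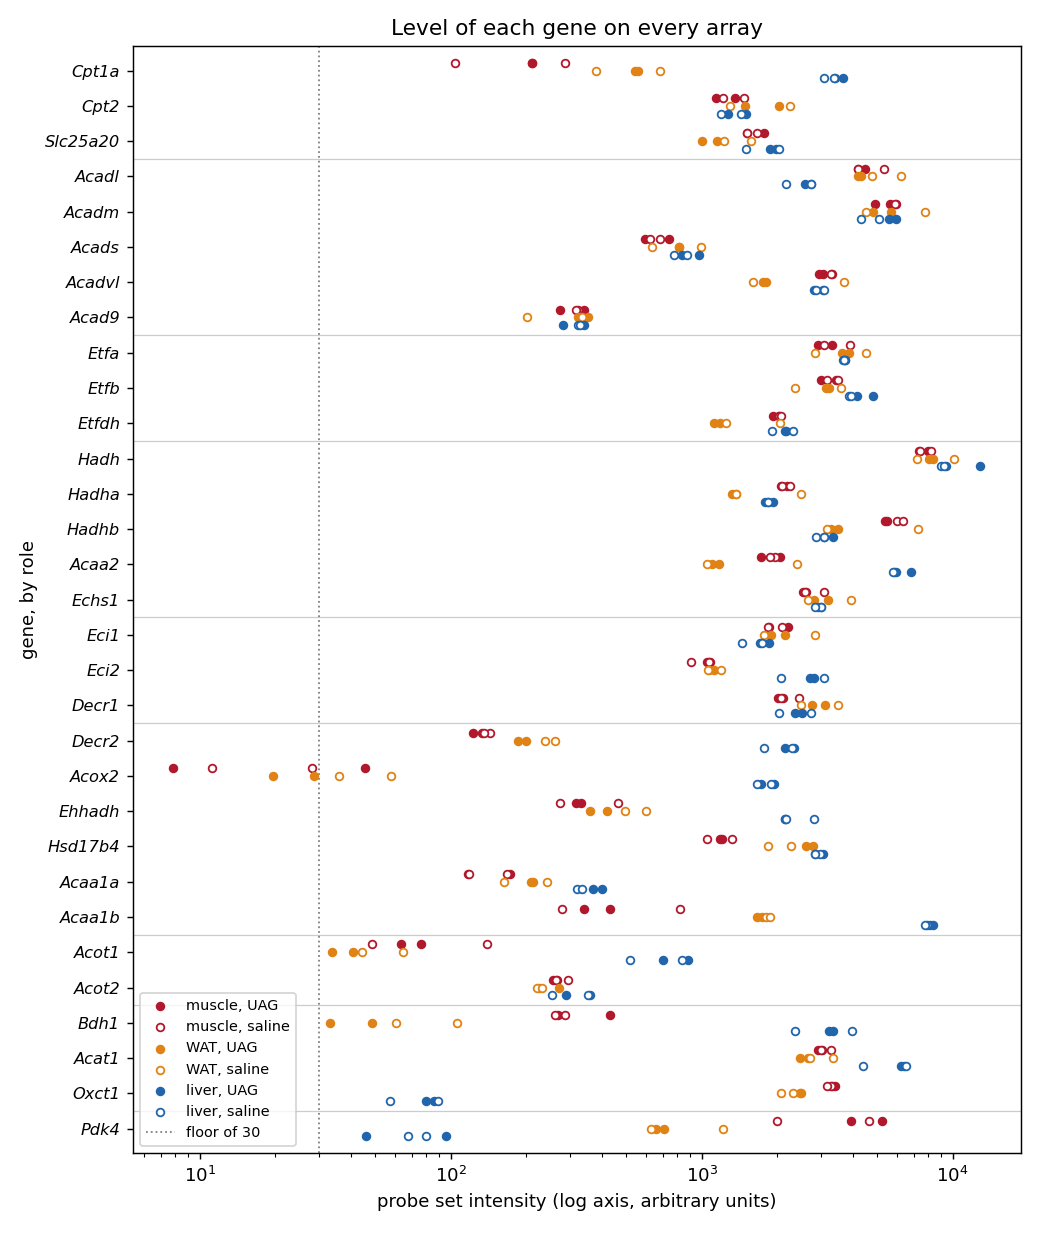
Probe set intensity (log axis, arbitrary units) of the 31 genes, ordered by role, on each of the 12 arrays, with filled points for UAG, open points for saline and the dotted line at the floor of 30. Liver stands to the right for the peroxisomal genes, Cpt1a, Acot1 and Bdh1 and to the left for Oxct1 and Pdk4, while the rows of Acadm, Acadvl and Acad9 overlap between liver and both other tissues.

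Of the 19 genes of the carnitine shuttle, mitochondrial oxidation and electron transfer, 6 (Cpt2, Acadm, Acad9, Etfa, Echs1 and Eci1) passed the test between no pair of tissues. The share of all genes that passed between no pair was not counted, so the 6 cannot be called many or few. Counted another way, all 4 liver arrays lay above the other 8 for 13 of the 31 genes (Cpt1a, Acaa2, Etfb, Eci2, Decr2, Acox2, Ehhadh, Hsd17b4, Acaa1a, Acaa1b, Acot1, Bdh1 and Acat1), where 18.9% of all genes did so. They lay below the other 8 for Acadl, Oxct1 and Pdk4, which is 3 genes, where 21.2% of all genes did so. The 4 muscle arrays were above the other 8 for Oxct1 and Pdk4 (15.2% of all genes) and below them for Cpt1a, Decr2, Hsd17b4 and Acaa1b (12.3%). The 4 WAT arrays were above for none of the 31 (17.7%) and below for Bdh1 alone (6.48%).

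**Figure D2:**
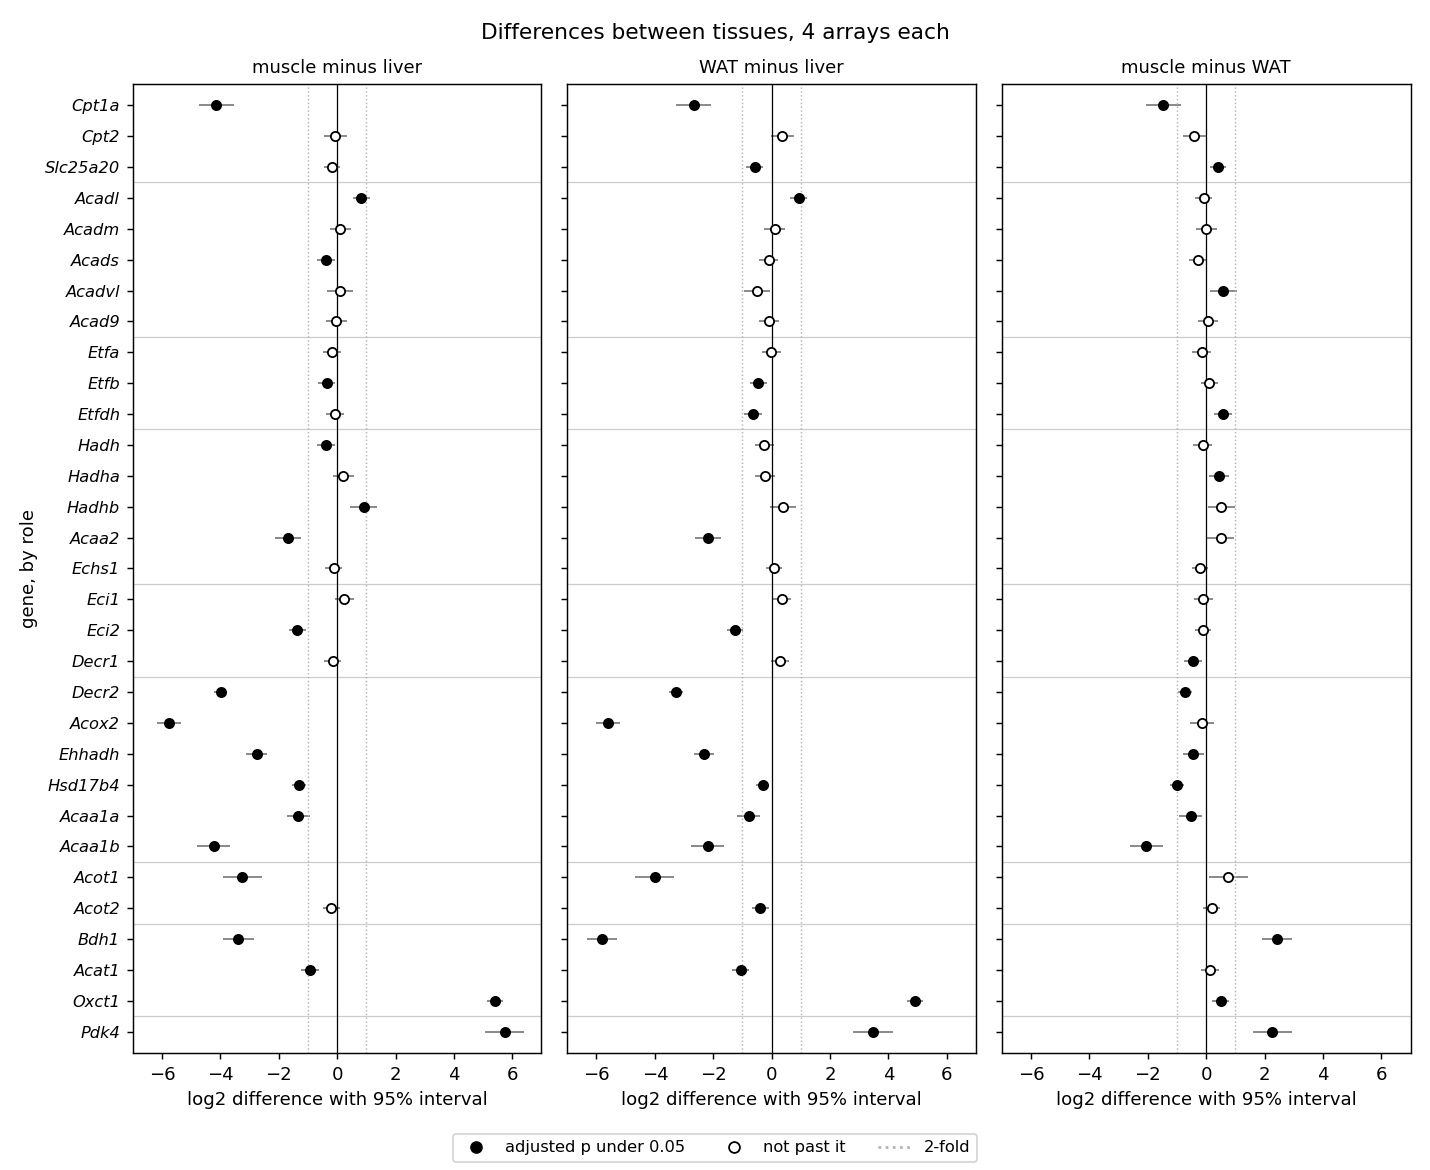
Log2 difference between tissues with its 95% interval for each of the 31 genes, 4 arrays a tissue, with filled points past an adjusted p of 0.05 and dotted lines at 2-fold. The intervals of the peroxisomal genes lie left of 0 in both comparisons with liver, and those of Oxct1 and Pdk4 lie right of 0 in all 3.

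The carnitine shuttle differed between tissues in its first enzyme. Cpt1a, the liver isoform of the enzyme that malonyl-CoA inhibits at the outer membrane, read 212 and 212 in UAG muscle, 104 and 284 in saline muscle, 543 and 559.7 in UAG WAT, 378 and 682 in saline WAT, 3644 and 3393 in UAG liver and 3077 and 3359 in saline liver. No array of one tissue overlapped another tissue for Cpt1a, and the ratio between the arrays of a group was widest in saline muscle. It was 17.6-fold lower in muscle than in liver (-4.14 ± 0.27, adjusted p = 1.79e-07) and 6.36-fold lower in WAT than in liver (-2.67 ± 0.27, adjusted p = 8.11e-06), and muscle also lay below WAT (-1.47 ± 0.27, adjusted p = 9.77e-04). Cpt2, which rebuilds acyl-CoA inside the inner membrane, read 1352 and 1139 in UAG muscle, 1219.8 and 1477 in saline muscle, 1482 and 2034 in UAG WAT, 2249 and 1296 in saline WAT, 1498 and 1273 in UAG liver and 1438 and 1189.8 in saline liver. The ranges of the 3 tissues overlapped for Cpt2, and no pair passed the test. Slc25a20, the carnitine-acylcarnitine carrier between these enzymes, read 1778 and 1520.3 in UAG muscle, 1515 and 1658 in saline muscle, 1152 and 1007 in UAG WAT, 1574 and 1225 in saline WAT, 1869 and 1983 in UAG liver and 1502 and 2029.8 in saline liver. For this carrier 3 of the 4 WAT arrays lay below every muscle and liver array, and the first saline array of WAT lay among them. WAT was at -0.58 ± 0.13 against liver (adjusted p = 0.00219), with muscle higher than WAT (0.40 ± 0.13, adjusted p = 0.0218, lost under 6 of 23 other settings) and the difference between muscle and liver not past it (-0.18 ± 0.13, adjusted p = 0.231).

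The 5 acyl-CoA dehydrogenases take the first step and divide the chain lengths among them. Acadvl, for very long chains, read 3058 and 2923 in UAG muscle, 3299 and 3291 in saline muscle, 1748 and 1798 in UAG WAT, 3705 and 1607 in saline WAT, 3049 and 2791 in UAG liver and 2862 and 3081 in saline liver. On 3 of the 4 WAT arrays it was lower than on any muscle or liver array, and on the first saline array of WAT, the one rich in brown fat markers, it was higher than on any of the 12. Acadl, for long chains, read 4193 and 4495 in UAG muscle, 4191 and 5335 in saline muscle, 4213 and 4309 in UAG WAT, 6216 and 4777 in saline WAT, 2728 and 2591 in UAG liver and 2165 and 2736 in saline liver. Its lowest values were the 4 of liver, and it was higher than liver in muscle (0.83 ± 0.13, adjusted p = 1.79e-04) and in WAT (0.92 ± 0.13, adjusted p = 9.65e-05), while muscle and WAT did not differ past the threshold. Acadm, for medium chains, read 4923 and 5638 in UAG muscle, 5945 and 5887 in saline muscle, 4837 and 5678 in UAG WAT, 7796 and 4502 in saline WAT, 5563 and 5957 in UAG liver and 4296 and 5074 in saline liver. The tissues overlapped throughout for Acadm, with a difference of 0.11 ± 0.16 between muscle and liver and of 0.10 ± 0.16 between WAT and liver. Acads, for short chains, read 743 and 596 in UAG muscle, 620.1 and 684 in saline muscle, 809 and 814 in UAG WAT, 989.6 and 634 in saline WAT, 976 and 837 in UAG liver and 874 and 779 in saline liver. It was lower in muscle than in liver (-0.39 ± 0.14, adjusted p = 0.0331), a call lost under 10 of 23 other settings (adjusted p up to 0.187). Acad9, which also helps to assemble respiratory complex I, read 339 and 272 in UAG muscle, 322 and 315 in saline muscle, 322 and 354 in UAG WAT, 333 and 202 in saline WAT, 279.7 and 339 in UAG liver and 321 and 328 in saline liver, with overlapping tissues and no call.

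Electrons from these dehydrogenases pass to electron transfer flavoprotein, built of Etfa and Etfb, and on through its membrane oxidoreductase Etfdh. Etfa averaged 3298 ± 427 in muscle, 3704 ± 697 in WAT and 3697 ± 37.4 in liver (SD, n = 4 each), with no pair past the threshold. Etfb averaged 3269 ± 236 in muscle, 3066 ± 512 in WAT and 4188 ± 427 in liver (SD, n = 4 each), and was lower in both muscle (adjusted p = 0.0385) and WAT (adjusted p = 0.0118) than in liver. The muscle call was lost under 13 of 23 other settings (adjusted p up to 0.344) and the WAT call under 3. Etfdh averaged 2019 ± 65.4 in muscle, 1400.1 ± 434 in WAT and 2136 ± 164 in liver (SD, n = 4 each). The WAT mean of Etfdh holds 3 arrays between 1120 and 1254 and the first saline array at 2045. It was lower in WAT than in liver (-0.65 ± 0.14, adjusted p = 0.00214) and higher in muscle than in WAT (0.57 ± 0.14, adjusted p = 0.00581).

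The later steps of the spiral are shared between the trifunctional protein of the inner membrane, made of Hadha and Hadhb, and the matrix enzymes Echs1, Hadh and Acaa2. Hadha, the subunit with hydratase and dehydrogenase activity, read 2185 and 2065 in UAG muscle, 2088 and 2249.6 in saline muscle, 1327 and 1371 in UAG WAT, 2488 and 1366 in saline WAT, 1926 and 1791 in UAG liver and 1833 and 1838 in saline liver. Hadhb, the thiolase subunit, read 5372 and 5485 in UAG muscle, 6030.1 and 6344 in saline muscle, 3281 and 3504 in UAG WAT, 7286 and 3155 in saline WAT, 3075 and 3348 in UAG liver and 2853 and 3069 in saline liver. Both subunits were highest of all 12 arrays on the first saline array of WAT and close together on the other 3 WAT arrays, but in liver they parted, with Hadha above those 3 WAT arrays and below muscle, and Hadhb overlapping those 3 WAT arrays. Divided by its own mean over the 12 arrays, Hadha stood at 0.954 to 1.03 in liver and Hadhb at 0.648 to 0.761, while in muscle they stood at 1.10 to 1.20 and 1.22 to 1.44. Hadhb was higher in muscle than in liver (0.91 ± 0.21, adjusted p = 0.00262), where Hadha was not past the threshold (0.22 ± 0.16, adjusted p = 0.251). A setting chosen after seeing the data left out both saline arrays of WAT. It set UAG arrays of WAT against muscle arrays of both treatments, so treatment and tissue are mixed in it. There muscle was higher than WAT for Hadha by 0.67, for Hadhb by 0.77, for Etfdh by 0.81 and for Acadvl by 0.82. With all arrays these differences were 0.44, 0.52, 0.57 and 0.59. Among these the calls of Hadha and Acadvl were each lost under 14 of 23 other settings. The difference between the subunits was not tested.

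Hadha and Hadhb start head to head on chromosome 5, and the 272 bases between their first transcribed bases are shown because one stretch of DNA serves as upstream region for both. It lies at chr5:30154981-30155252 of GRCm38.p6 and is written on the plus strand, 5′ to 3′ towards Hadhb, from the RefSeq promoter windows. Capitals mark the GC box GGGCGG, searched on both strands, which it holds 2 times.
Hadha-Hadhb: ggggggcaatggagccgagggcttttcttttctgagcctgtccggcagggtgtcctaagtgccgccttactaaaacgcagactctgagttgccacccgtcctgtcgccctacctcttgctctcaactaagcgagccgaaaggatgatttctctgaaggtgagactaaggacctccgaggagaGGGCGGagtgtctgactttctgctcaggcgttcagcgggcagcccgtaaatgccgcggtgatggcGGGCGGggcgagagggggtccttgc
A GC box was found in 15 of the 28 upstream windows that 26 of the genes had, and in 32.7% of 32851 windows of all genes, each 250 bases long and ending at the base before a start. CCAAT, the CCAAT box, was found in 13 of the 28 and in 33.8% of all. A match is a description of the letters only.

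Acaa2, the matrix thiolase, was the step of the mitochondrial spiral with the clearest liver excess, averaging 1903 ± 137 in muscle, 1432 ± 653 in WAT and 6109 ± 475 in liver (SD, n = 4 each). It was lower than liver in muscle (-1.68 ± 0.21, adjusted p = 3.18e-05) and in WAT (-2.18 ± 0.21, adjusted p = 4.82e-06), and its other 2 probe sets ran the same way. In WAT it read 1171 and 1102 in UAG WAT, against 2409 and 1046 in saline WAT, and the first saline array was again the highest of that tissue. Hadh, the short-chain 3-hydroxyacyl-CoA dehydrogenase, averaged 7724 ± 426 in muscle, 8452 ± 1234 in WAT and 10118 ± 1846 in liver (SD, n = 4 each), lower in muscle than in liver (adjusted p = 0.0418), a call lost under 14 of 23 other settings (adjusted p up to 0.382). Echs1, the short-chain hydratase, averaged 2703 ± 247 in muscle, 3145 ± 572 in WAT and 2931 ± 73.8 in liver (SD, n = 4 each), with no call.

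Unsaturated fatty acids need extra enzymes that move or reduce their double bonds. Eci2, an enoyl-CoA isomerase of mitochondria and peroxisomes, averaged 1027 ± 79.7 in muscle, 1114 ± 59.8 in WAT and 2662 ± 427 in liver (SD, n = 4 each). All 4 liver arrays were above the other 8 (-1.36 ± 0.13 for muscle, adjusted p = 3.15e-06, and -1.24 ± 0.13 for WAT, adjusted p = 8.02e-06). Eci1, its mitochondrial counterpart, averaged 2000.3 ± 185 in muscle, 2161 ± 469 in WAT and 1689 ± 174 in liver (SD, n = 4 each), with no call. Decr1, the mitochondrial 2,4-dienoyl-CoA reductase, averaged 2158 ± 188 in muscle, 2954 ± 438 in WAT and 2408 ± 292 in liver (SD, n = 4 each), and was lower in muscle than in WAT (-0.45 ± 0.14, adjusted p = 0.0185). Its dimmer probe set ran the other way (0.31), and the call was lost under 8 of 23 other settings, at -0.07 with the mean of both probe sets (adjusted p = 0.711).

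All 6 peroxisomal genes were lower in muscle and in WAT than in liver, with Hsd17b4 in WAT the one call that other settings lost. Acox2, the oxidase of branched chains and bile acid intermediates, read 45.4 and 7.84 in UAG muscle, 11.2 and 28.1 in saline muscle, 19.6 and 28.7 in UAG WAT, 58.0 and 35.8 in saline WAT, 1718 and 1950.4 in UAG liver and 1881 and 1667 in saline liver. Of the 8 values outside liver, 5 were below the floor of 30, so the differences of -5.76 for muscle and -5.61 for WAT against liver depend on that floor. Decr2, the peroxisomal dienoyl-CoA reductase, averaged 134 ± 8.79 in muscle, 221 ± 35.1 in WAT and 2138 ± 252 in liver (SD, n = 4 each). Decr2 was 15.9-fold lower in muscle than in liver (adjusted p = 8.30e-11) and 9.71-fold lower in WAT than in liver (adjusted p = 5.68e-10).

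The bifunctional enzymes of the peroxisome went apart. Ehhadh, the L-bifunctional enzyme of straight chains, read 330.3 and 316 in UAG muscle, 273 and 464 in saline muscle, 359.5 and 419 in UAG WAT, 598 and 496 in saline WAT, 2142 and 2151 in UAG liver and 2160.2 and 2792 in saline liver. It was lower than liver in muscle (-2.76 ± 0.16, adjusted p = 6.80e-08) and in WAT (-2.32 ± 0.16, adjusted p = 3.55e-07). Hsd17b4, the D-bifunctional enzyme needed for branched and very long chains, averaged 1191 ± 113 in muscle, 2374 ± 415 in WAT and 2916 ± 112 in liver (SD, n = 4 each). For Hsd17b4 WAT was at -0.31 ± 0.11 against liver (adjusted p = 0.0278), a call lost under 10 of 23 other settings (adjusted p up to 0.542), and muscle lay below both (-0.98 ± 0.11 against WAT, adjusted p = 3.18e-05).

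The peroxisomal thiolases Acaa1a and Acaa1b are close copies on chromosome 9, and probe sets that the annotation gives to both were not used. Acaa1b read 431 and 339 in UAG muscle, 279 and 819 in saline muscle, 1655 and 1734 in UAG WAT, 1806 and 1866 in saline WAT, 8369 and 8153 in UAG liver and 7928 and 7737 in saline liver. The 3 tissues did not overlap, in the order liver, WAT, muscle, and the neighbours in that order differed (-2.19 ± 0.26 for WAT against liver, adjusted p = 2.58e-05, and -2.05 ± 0.26 for muscle against WAT, adjusted p = 7.69e-05). Acaa1a averaged 144 ± 30.6 in muscle, 207 ± 32.3 in WAT and 356 ± 36.5 in liver (SD, n = 4 each), in the same order but with smaller steps (-0.79 ± 0.17 for WAT against liver, adjusted p = 0.00242, and -0.53 ± 0.17 for muscle against WAT, adjusted p = 0.0254, lost under 9 of 23 other settings). Reads of one copy by the probes of the other cannot be told apart.

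The thioesterases release free fatty acids from acyl-CoA, Acot1 in the cytosol and Acot2 in mitochondria, and are also neighbouring copies. Acot1 read 76.3 and 63.1 in UAG muscle, 48.5 and 139 in saline muscle, 33.5 and 40.6 in UAG WAT, 44.5 and 64.7 in saline WAT, 699.9 and 882 in UAG liver and 517 and 836 in saline liver. Liver was the high tissue (-3.25 ± 0.30 for muscle, adjusted p = 3.23e-06, and -4.01 ± 0.30 for WAT, adjusted p = 6.78e-07), and muscle and WAT did not differ past the threshold (adjusted p = 0.0556). Acot2 read 266 and 256 in UAG muscle, 264 and 294 in saline muscle, 224 and 271 in UAG WAT, 221 and 232 in saline WAT, 287 and 359 in UAG liver and 252 and 352 in saline liver. It was lower in WAT than in liver (-0.39 ± 0.14, adjusted p = 0.0289), a call lost under 10 of 23 other settings (adjusted p up to 0.352), and its dimmer probe set ran the other way between muscle and liver, at a mean of 84.0 in muscle and 38.6 in liver.

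The ketone body genes differed in which tissue was high. Bdh1, which interconverts acetoacetate and 3-hydroxybutyrate in both making and using them, read 431 and 267 in UAG muscle, 285 and 259 in saline muscle, 33.2 and 48.6 in UAG WAT, 60.5 and 106 in saline WAT, 3323 and 3210.1 in UAG liver and 2353 and 3977 in saline liver. No tissue overlapped another, in the order liver, muscle, WAT, and the neighbours differed (-3.38 ± 0.23 for muscle against liver, adjusted p = 2.83e-07, and 2.42 ± 0.23 for muscle against WAT, adjusted p = 1.28e-05). Acat1, the mitochondrial acetoacetyl-CoA thiolase that also works in both directions, read 2905 and 3012 in UAG muscle, 2991 and 3284 in saline muscle, 2664 and 2470.0 in UAG WAT, 3344 and 2702 in saline WAT, 6202 and 6418 in UAG liver and 4389.6 and 6529 in saline liver. Liver was above muscle and WAT on every array, with muscle at -0.93 ± 0.13 (adjusted p = 1.03e-04) and WAT at -1.07 ± 0.13 (adjusted p = 4.32e-05), which did not differ from each other past the threshold. The first saline array of liver, at 4389.6, was the low one there and was also the lowest liver array for Bdh1 and Acot1.

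Oxct1, the transferase that tissues need to use ketone bodies, ran the other way. It read 3395 and 3298 in UAG muscle, 3277 and 3162 in saline muscle, 2465 and 2489 in UAG WAT, 2065 and 2314 in saline WAT, 80.1 and 86.1 in UAG liver and 57.4 and 89.4 in saline liver. Every muscle and WAT array exceeded every liver array, 42.5-fold for muscle (5.41 ± 0.13, adjusted p = 3.00e-11) and 30.2-fold for WAT (4.91 ± 0.13, adjusted p = 8.16e-11), and muscle was higher than WAT (0.50 ± 0.13, adjusted p = 0.00778). Among the 31 genes this was the smallest adjusted p of both comparisons with liver.

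Pdk4 encodes a kinase that shuts pyruvate dehydrogenase and so spares glucose when fat is burned. It read 5249 and 3925 in UAG muscle, 1994 and 4622 in saline muscle, 710.1 and 657 in UAG WAT, 1216 and 627 in saline WAT, 45.9 and 95.7 in UAG liver and 79.4 and 67.7 in saline liver. The order was muscle, WAT, liver with no overlap, at 2.27 ± 0.31 for muscle against WAT (adjusted p = 1.28e-04) and 3.47 ± 0.31 for WAT against liver (adjusted p = 2.64e-06). Marker RNA of other cell types varied among the muscle arrays. The 5 adipocyte markers summed to 26841 and 31080 in UAG muscle, against 23455 and 35699 in saline muscle. The 6 mesothelial and epithelial markers summed to 509 and 659 in UAG muscle, against 113 and 2689 in saline muscle. The 7 hepatocyte markers, with Cyp2e1 also high in WAT, summed to 7790 and 9853 in UAG muscle, against 3228 and 12026 in saline muscle. The first saline array had the lowest of each of these sums. It was also the lowest muscle array for Pdk4, Cpt1a, Acaa1b, Ehhadh, Acot1, Slc25a20, Acadl, Eci1, Eci2 and Hsd17b4. Of these genes, Pdk4, Acot1 and Slc25a20 averaged lower in WAT (802, 45.8 and 1239) than in muscle (3948, 81.8 and 1618). The others averaged higher in WAT. The part of these cell types in the muscle levels was not tested.

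The upstream windows of 4 further genes are shown, Cpt1a, Oxct1 and Pdk4 as the shuttle, ketone use and fuel switch genes that passed the test in all 3 tissue comparisons, and Acadm as the single window with the nuclear receptor half-site AAGGTCA. Each is 250 bases of GRCm38.p6 from RefSeq, 5′ to 3′ on the strand of the gene and ending just before its first transcribed base: Cpt1a at chr19:3323051-3323300 on the plus strand, Oxct1 at chr15:4026178-4026427 on the plus strand, Pdk4 at chr6:5496279-5496528 on the minus strand and Acadm at chr3:153944644-153944893 on the minus strand. Capitals mark a GC box, a CCAAT box or the half-site, read on either strand.
Cpt1a: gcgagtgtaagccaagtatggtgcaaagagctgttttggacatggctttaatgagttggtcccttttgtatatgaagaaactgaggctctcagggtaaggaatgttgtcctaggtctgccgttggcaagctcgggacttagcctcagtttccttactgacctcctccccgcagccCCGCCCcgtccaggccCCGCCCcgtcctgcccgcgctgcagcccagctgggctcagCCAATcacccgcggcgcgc
Oxct1: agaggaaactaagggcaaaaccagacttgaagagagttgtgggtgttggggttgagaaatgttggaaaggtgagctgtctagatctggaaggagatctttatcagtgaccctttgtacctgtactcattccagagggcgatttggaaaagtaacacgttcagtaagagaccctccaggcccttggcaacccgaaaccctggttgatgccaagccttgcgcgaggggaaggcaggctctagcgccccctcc
Pdk4: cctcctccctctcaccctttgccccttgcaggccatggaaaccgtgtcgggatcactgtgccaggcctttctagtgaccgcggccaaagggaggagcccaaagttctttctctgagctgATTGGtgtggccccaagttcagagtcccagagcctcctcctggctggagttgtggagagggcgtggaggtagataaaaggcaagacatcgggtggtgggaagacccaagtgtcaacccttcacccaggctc
Acadm: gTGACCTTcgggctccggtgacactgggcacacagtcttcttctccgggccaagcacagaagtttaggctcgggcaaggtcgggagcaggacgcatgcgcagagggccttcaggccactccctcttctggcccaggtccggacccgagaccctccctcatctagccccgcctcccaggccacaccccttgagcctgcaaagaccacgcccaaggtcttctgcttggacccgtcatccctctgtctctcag
Cpt1a holds GC boxes and a CCAAT box, Pdk4 a CCAAT box and Oxct1 none of the motifs. The half-site is in 4.08% of all windows, and the direct repeat AGGTCANAGGTCA that PPAR receptors bind, which shares letters with the half-site, is in 0.0335% of all windows and none of the 28. These windows cover the start only, and elements elsewhere were not searched.

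Other genes of the same pathways were read against the same shares of all genes, 35.2% higher and 31.1% lower in muscle than in liver, and 35.6% higher and 27.3% lower in WAT than in liver. Of 16 other peroxisomal genes, 1 was higher and 15 lower in muscle than in liver, and 1 was higher and 12 lower in WAT than in liver. Slc27a2, the very long chain acyl-CoA synthetase that also imports fatty acids, was at -5.48 ± 0.50 in muscle and -7.31 ± 0.50 in WAT against liver, and the acetyl-CoA thioesterase Acot12 read below the floor of 30 on all 8 arrays of muscle and WAT, against 1470.3 to 1607 in liver, so its difference of -5.68 from liver in both rests on that floor. Abcd2, the transporter of very long chains, was lower in muscle than in WAT (-1.21 ± 0.29, adjusted p = 0.00456). Of 24 other mitochondrial genes, 7 were higher and 10 lower in muscle than in liver and 8 higher and 9 lower in WAT than in liver. Among these Crat, which makes acetylcarnitine, was at 2.86 ± 0.14 in muscle and 2.47 ± 0.14 in WAT against liver, and the uncoupling protein homologue Ucp3 at 3.80 ± 0.36 in muscle.

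Of 6 ketone and acetate genes outside the list, 2 were higher and 3 lower in muscle than in liver, where 35.2% of all genes were higher and 31.1% lower. Acss1, which activates acetate in mitochondria, read 372 to 437 in muscle and 112 to 340 in WAT, against values below the floor of 30 on all 4 liver arrays, so its differences of 3.74 and 2.36 from liver rest on that floor. The monocarboxylate carrier Slc16a7 was lower in both muscle and WAT than in liver (-3.50 ± 0.20 and -2.53 ± 0.20). Of 16 regulators and switch kinases, 8 were higher and 5 lower in muscle than in liver, with the same 35.2% and 31.1% over all genes. The receptor Ppara, which drives these pathways in liver, was at -2.29 ± 0.17 in muscle and -3.29 ± 0.17 in WAT against liver, and its relative Pparg of adipocytes at 2.43 ± 0.28 and 4.17 ± 0.28. Pdp1, the phosphatase that reverses the Pdk kinases, was higher in muscle than in liver (4.06 ± 0.19, with 2 of the 4 liver arrays below 30) and than in WAT (2.42 ± 0.19). Each of these genes passed an adjusted p of 0.05 in limma for the differences given here.

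After UAG no oxidation or ketone gene passed the test, and Bdh1 in WAT alone met the 2-fold rule. By the 2-fold ratio of means, 0 of 30 genes changed in muscle, 1 of 31 in WAT and 0 of 31 in liver, where 0.269% of all genes rose and 0.370% fell in muscle, 0.509% rose and 1.95% fell in WAT, and 0.329% rose and 0.278% fell in liver. No gene passed an adjusted p of 0.05 in limma in any tissue, among these or among all the 11894 genes tested in muscle, 11981 in WAT and 11850 in liver. At an unadjusted p under 0.05, 0 genes of the list were found in muscle (1.13% of all genes higher and 0.723% lower), 2 in WAT, both lower (4.78% of all genes higher and 2.34% lower), while liver had 0 (1.89% of all genes higher, 1.49% lower). With 2 arrays a group the intervals are wide, and in WAT they reached 2-fold or more for several genes.

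**Figure D3:**
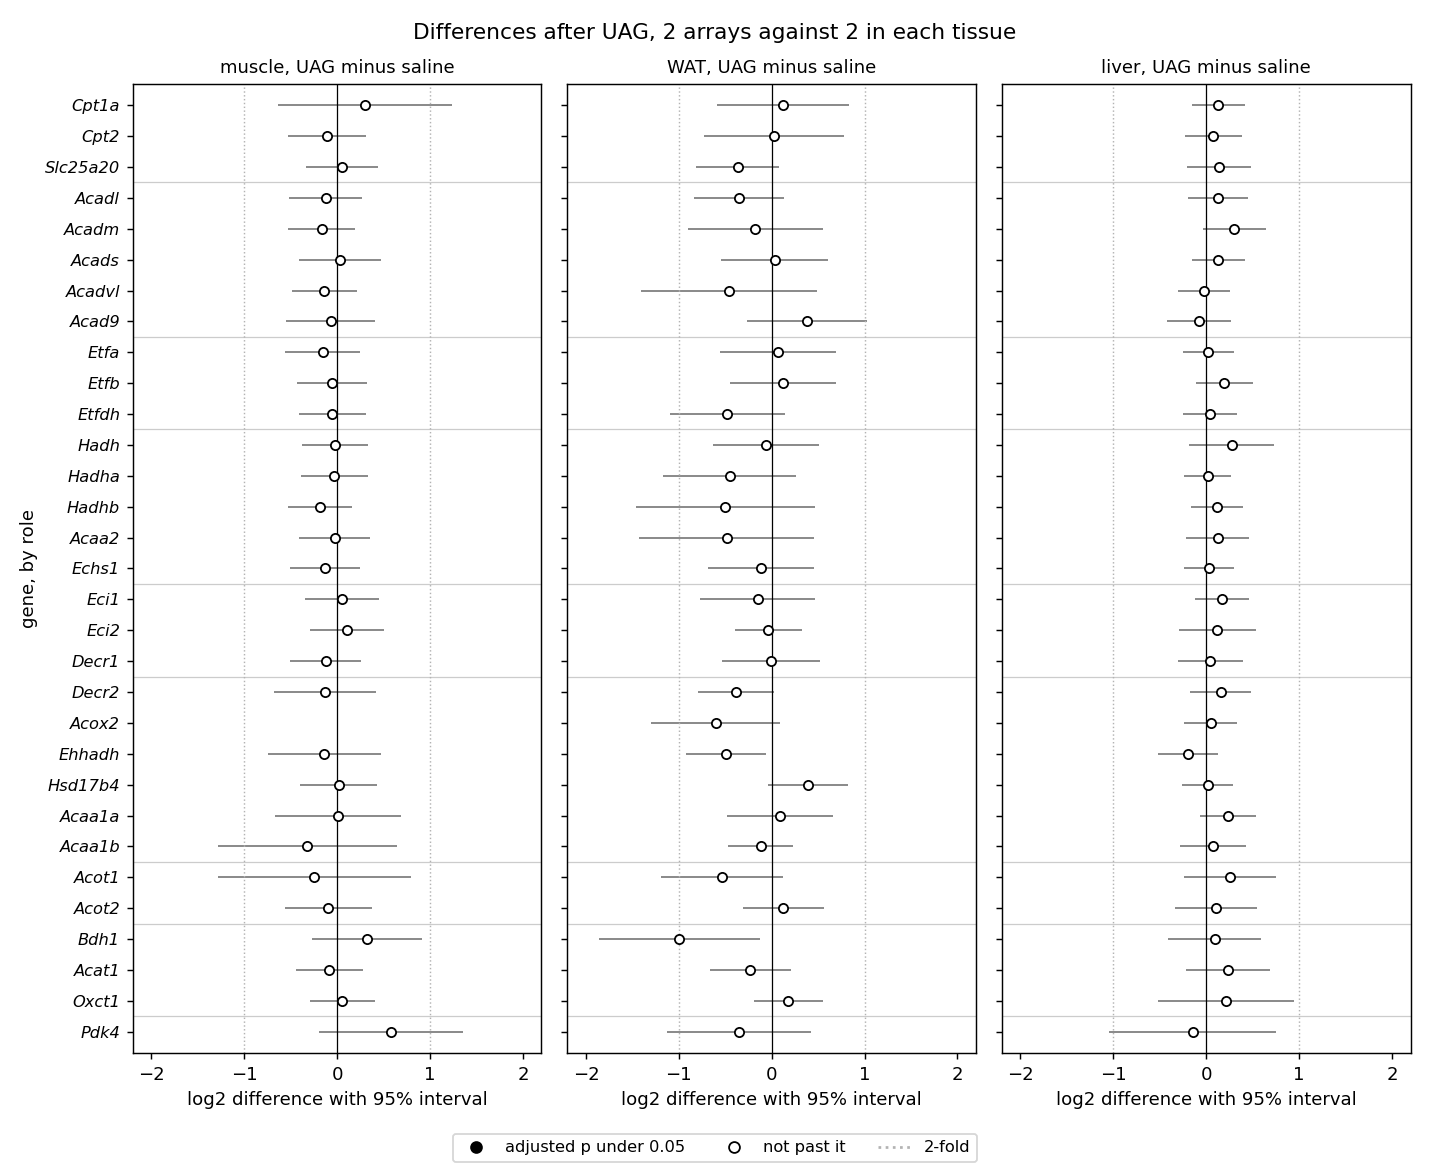
Log2 difference of UAG minus saline with its 95% interval for each gene in muscle, WAT and liver, 2 arrays against 2, with dotted lines at 2-fold. No point is past an adjusted p of 0.05, the farthest is Bdh1 in WAT at -0.996, and Acox2 has no point in muscle, where its mean was under 30.

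In WAT the gene that met the 2-fold rule was Bdh1. It read 33.2 and 48.6 in UAG WAT, against 60.5 and 106 in saline WAT. Both UAG arrays were below both saline arrays, all of them not far above the floor of 30, and the ratio of UAG to saline means was 0.491. The log2 difference was -0.996 with a 95% interval of -1.86 to -0.13 (adjusted p = 0.71). With a ratio of geometric means or a floor of 100 it no longer met the rule, nor without the first UAG array, nor without the second saline array, the one at 106, where the log2 ratio of means was -0.56 against -1.03 with all arrays.

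Ehhadh was the other gene of WAT with an unadjusted p under 0.05. It read 359.5 and 419 in UAG WAT, against 598 and 496 in saline WAT, with a difference of -0.49 (95% interval -0.92 to -0.06, adjusted p = 0.71). Both UAG arrays lay below both saline arrays for 10 of the 31 genes (Slc25a20, Acadl, Etfdh, Decr2, Acox2, Ehhadh, Acaa1b, Acot1, Bdh1 and Acat1), where 14.2% of all genes did so, and above them for Hsd17b4 and Oxct1, where 24% did so. Hsd17b4 read 2595 and 2786 in UAG WAT, against 2279 and 1836 in saline WAT, a difference of 0.39 (95% interval -0.03 to 0.82, adjusted p = 0.751). On the other Hsd17b4 probe set, about as bright in WAT, the difference was 0.10. For Oxct1 the brightest probe set stood at 0.18 and the others at 0.30, -0.19 and -0.10. Next to Bdh1 the widest differences were those of Acox2 (-0.60), Acot1 (-0.54) and Hadhb (-0.50). The UAG values of Acox2 were below 30, and Acot1 read 33.5 and 40.6 in UAG WAT, against 44.5 and 64.7 in saline WAT.

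The direction over the 31 genes in WAT turned with the saline array used. The median difference of the 31 genes was -0.15, and 10 of 31 were above 0, where the median of all genes was 0.03 and 54.4% were above 0. Without the first saline array the median was 0.11, and without the second it was -0.38. For Hadhb the log2 ratio of UAG to saline means was -0.62 with all arrays, 0.10 without the first saline array and -1.10 without the second, and Acadvl and Acaa2 did likewise (0.14 and 0.12 without the first, -1.06 and -1.08 without the second). Between the saline arrays, replicate 1 was above replicate 2 for 25 of 31 genes with a median log2 ratio of 0.56, where 50.7% of all genes were above, and the 8 brown adipocyte markers tested were all above, with a median of 2.70. Between the UAG arrays of WAT 4 of 31 genes were above, with a median of -0.07, where 52.2% of all genes were above, while 8 of 8 brown adipocyte markers were above, with a median of 0.93. The count was as lopsided between the UAG arrays of muscle, where 24 of 30 genes were above, but by a median of 0.08, where 57.2% of all genes were above with a median of 0.05. Most of the genes went the other way between the saline arrays of muscle and those of liver. There replicate 1 was mostly below replicate 2, where 51.4% and 51.3% of all genes were above. After UAG, 8 of 8 brown adipocyte markers were lower than in saline in WAT, 7 of them by 2-fold, where 1.95% of all genes fell so far. The 5 of 5 smooth muscle markers were lower too. The brown marker sums were 4240 and 2077 in UAG WAT against 20724 and 3042 in saline WAT, so the first UAG array exceeded the second saline array. The smooth muscle sums were 4676 and 4672 against 4790 and 27767, so the second saline array alone stood apart. The part of these cell types in the differences was not tested.

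**Figure D4:**
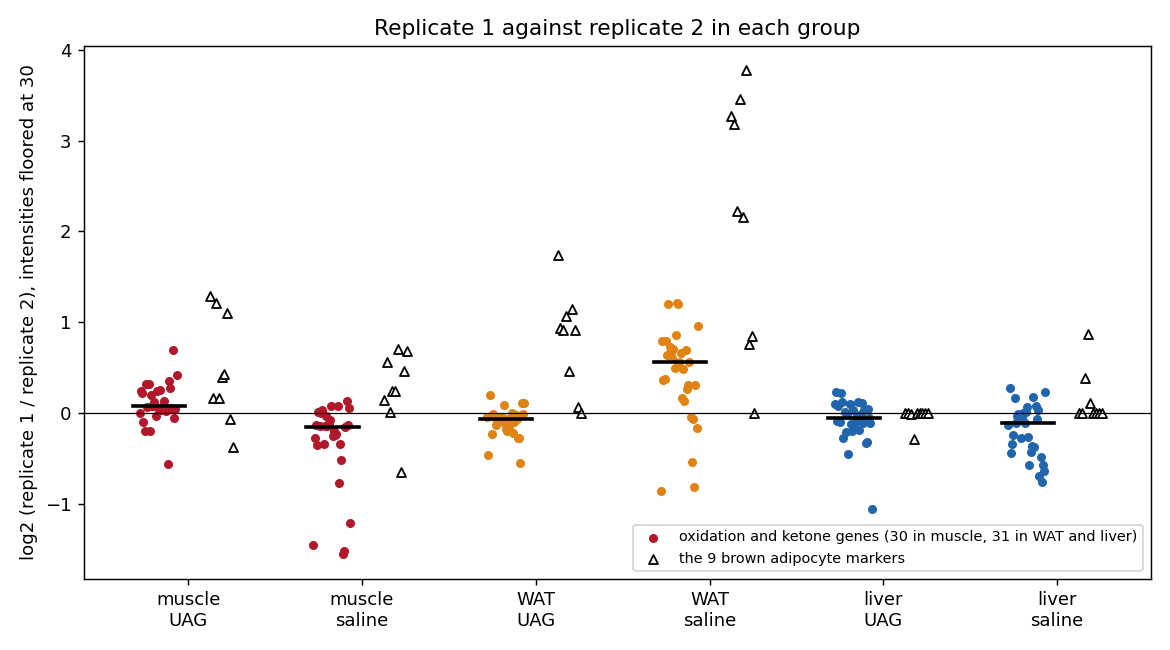
Log2 ratio of replicate 1 to replicate 2 in each group, for the oxidation and ketone genes (coloured points, black bar at their median) and the 9 brown adipocyte markers (open triangles), with intensities floored at 30. Both sets lie mostly above 0 in saline WAT, where the oxidation and ketone genes have a median of 0.56, and in UAG muscle, where it is 0.08. The oxidation and ketone genes lie mostly below 0 in UAG WAT, saline muscle and saline liver.

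In muscle the 4 widest differences after UAG were those of Pdk4, Acaa1b, Bdh1 and Cpt1a, and none passed the test. Pdk4 read 5249 and 3925 in UAG muscle, against 1994 and 4622 in saline muscle, a difference of 0.58 with a 95% interval of -0.20 to 1.36. Acaa1b read 431 and 339 in UAG muscle, against 279 and 819 in saline muscle (-0.32, -1.28 to 0.64). For both genes the UAG arrays lay between the saline arrays or overlapped them, and the saline arrays differed most. Bdh1 read 431 and 267 in UAG muscle, against 285 and 259 in saline muscle (0.32, -0.27 to 0.91), and Cpt1a read 212 and 212 in UAG muscle, against 104 and 284 in saline muscle (0.30, -0.63 to 1.24). Without the second saline array Cpt1a and Pdk4 were 2-fold higher after UAG. Without the first Acaa1b was 2-fold lower, so those counts rest on the saline pair. The mesothelial and epithelial marker sums of that pair were 113 and 2689, and their part in these differences was not tested. Over the 30 genes tested the median was -0.06 with 10 above 0, where all genes had a median of 0.01 and 52.3% above 0. Both UAG arrays lay below both saline arrays for Acadm, Acadvl, Hadhb and Decr2 (9.77% of all genes) and above them for Oxct1 (11.8%).

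In liver the differences were small and mostly above 0. The widest were those of Acadm, Hadh, Acot1 and Acaa1a. Acadm read 5563 and 5957 in UAG liver, against 4296 and 5074 in saline liver, a difference of 0.30 with a 95% interval of -0.04 to 0.64. Hadh read 9399.6 and 12873 in UAG liver, against 8958 and 9240.0 in saline liver (0.27, -0.18 to 0.73), and the second UAG array alone was high. Acot1 read 699.9 and 882 in UAG liver, against 517 and 836 in saline liver (0.26, -0.24 to 0.75) and Acaa1a 369.6 and 400.2 in UAG liver, against 319 and 333 in saline liver (0.24, -0.06 to 0.54). Of the 31 genes 27 were above 0, where 51.6% of all genes were, with a median of 0.12 against 0.01 over all genes. Without the first saline array the median was 0.01. That array read below the second saline array for most of the 31 genes, at ratios of 0.59 for Bdh1, 0.62 for Acot1 and 0.67 for Acat1 and Eci2. It read above the second for the others, at up to 1.21 for Cpt2. UAG arrays lay above saline arrays for 9 genes (Cpt1a, Acadm, Hadh, Hadhb, Acaa2, Etfa, Etfb, Acaa1a and Acaa1b), where 15.2% of all genes did so, and below them for Ehhadh (14.4%), which read 2142 and 2151 in UAG liver, against 2160.2 and 2792 in saline liver.

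The UAG effect was then set between tissues as an interaction in a fit to all 12 arrays. No gene of the 31 passed an adjusted p of 0.05 for any of the 3 pairs of tissues, where 0% to 0.00794% of all genes did so. At an unadjusted p under 0.05 the effect of 2 genes was lower in WAT than in liver (Decr2 and Bdh1, 1.95% of all genes) and that of 2 higher in muscle than in WAT (Bdh1 and Acox2, 1.83% of all genes). For Bdh1 the effect in muscle minus that in WAT was 1.32 ± 0.47 (adjusted p = 1.00). Without the second saline array of WAT Hadhb passed for WAT against liver.

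For the other genes of the pathways after UAG, 0 were past an adjusted p of 0.05. In WAT, 2 of 23 other mitochondrial genes (Acsl3 and Acsl5, both acyl-CoA synthetases), 2 of 15 other peroxisomal genes (Acot3 and Slc27a2) and 1 of 16 regulators (Ppargc1a) fell by the 2-fold rule, where 1.95% of all genes did so, and 0 rose in any list, where 0.509% of all genes did so. Acsl5 read 676 and 579 in UAG WAT, against 1854 and 695 in saline WAT, and Slc27a2 read 53.9 and 15.6 in UAG WAT, against 242 and 34.7 in saline WAT. In both the first saline array was the high one, as it was for the brown adipocyte markers. In muscle and liver 0 genes of these lists met the 2-fold rule. Lpin1, a phosphatidate phosphatase and co-activator of Ppara, read 3133 and 3321 in UAG liver, against 2201 and 1553 in saline liver (0.80 ± 0.17, adjusted p = 0.841), and Acsl5 read 324 and 361 in UAG muscle, against 779 and 585 in saline muscle (-0.98 ± 0.21, adjusted p = 1).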

How the data were processed

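RNA of muscle, WAT and liver was measured on 12 Affymetrix whole-genome arrays, 2 per tissue and treatment. The deposited values are log2 intensities that the authors normalized. MAS5 appears in the submitters' notes, with no version. Quantile normalization, a threshold of 30 in intensity and ratios of means past 2-fold are described in the methods. No source gives the log base, which was taken as 2. The number of arrays limits the precision. The methods give n = 2 for the mice, and the labels give only a replicate number for the 2 arrays of a group, so p-values measure the spread between these samples. Sharing of mice between tissues, which is probable, was left out of the main fits.

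Values were returned to intensity and values below 30 were set to 30. The 64 control probe sets were dropped. Of the 45037 others, 34945 had 1 gene symbol, 932 several and 9160 none. A gene with several probe sets was read from the brightest by mean. limma 3.58.1 in R 4.3.3 was fitted with an intensity trend over probe sets with a mean of at least 30, to the 4 arrays of a tissue for UAG against saline and to all 12 for tissues and interactions. The 2-fold rule used ratios of arithmetic means. The fits were tested on simulated data. Motifs were sought on both strands of RefSeq windows of GRCm38.p6, of 250 bases each. Replicate numbers were not taken to pair the arrays, since the correlation of same-numbered deviations between UAG and saline was 0.177 in muscle, -0.176 in WAT and -0.0284 in liver. Between tissues it was 0.0138 to 0.153 over the 6 pairs of groups, over 0.1 in 2 of them (saline WAT with saline muscle and with saline liver).

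The genes, the lists of other pathway genes and the markers were chosen with earlier results of these data known. All arrays are given for the genes that define a step or an isozyme pair, for genes called after UAG and for the 4 widest UAG differences per tissue. From the other pathway lists, some of the genes past a call or with the widest differences are named.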

Additional observations from a re-analysis of the deposited data

Results flagged for a closer look

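Of 93 sets of 4 arrays, 1 per gene and tissue, 12 had an array far from the others. Its gap to its nearest neighbour passed the critical share of the range (Dixon, at 95%) on the floored log2 scale. A rate of 1 in 20 would give about 4.65 for independent sets of normal values. These sets mix UAG with saline and share arrays, and the share over all genes was not counted. The 12 therefore cannot be set against chance. The first saline array of WAT stood out as high for 4 genes, Hadha (gap 0.948 of the range), Hadhb (0.875), Acadvl (0.865) and Acaa2 (0.864). The second saline array of WAT stood out as low for Acad9 (0.834), at 202 against 322 to 354 on the others. The second UAG array of liver stood out as high for Hadh (0.867) and Acaa2 (0.863). Other single arrays were the first saline array of liver for Acat1 (0.870, low), the second saline array of liver for Ehhadh (0.967, high), the first saline array of muscle for Eci2 (0.845, low), the second saline array of muscle for Echs1 (0.853, high) and the first UAG array of muscle for Acox2 (1, the other 3 being below 30).

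For 3 genes all UAG arrays lay on one side of saline in one tissue and on the other side in another, which is 3 of the 93 pairs of tissues looked at. Over all genes, from 9.77% (lower in muscle) to 24% (higher in WAT) lay wholly on a given side in a tissue. The share of all genes on opposite sides was not counted. For Acadm the UAG effect in muscle minus that in liver was -0.47 ± 0.32, for Hadhb it was -0.31 ± 0.41, and for Acaa1b the effect in WAT minus that in liver was -0.19 ± 0.51 (log2 ± SE). None passed the limma test of the difference (adjusted p = 1 for each).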

How the results depend on the processing

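Most counts kept within 1.5 times of their value under the other settings run. Those that did not were the following. After UAG, the 2-fold count in muscle (0) ranged from 0 to 2 with an array left out, and that in WAT (1) from 0 to 3, and was 0 with a floor of 100, with all probe sets of a gene averaged and with geometric means. The count of genes higher in WAT than in liver (3) ranged from 3 to 8 with an array left out. In muscle against WAT the count of 14 was 8 with no filter on dim probe sets, 7 with saline arrays only and 9 with UAG arrays only, and 8 to 18 with an array left out. Those higher in muscle (7) were 4 with no filter and 3 with saline arrays only, and 4 to 9 with an array left out. Those lower in muscle (7) were 4 with no filter, with saline arrays only and with UAG arrays only, and 4 to 11 with an array left out. The interaction count (0) ranged from 0 to 1. One gene turned round, Acot2 in muscle against liver, at 0.46 with the mean of its probe sets. Its brightest probe set stood at -0.20 and its dimmer one at 1.12. Why the probe sets differ was not tested.

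Replicate numbers were not taken to pair the arrays. With the replicate number as a block the counts of genes called were 19 for muscle against liver, 20 for WAT against liver and 17 for muscle against WAT, and 0 after UAG in each tissue. With crossed numbers in WAT, an alternative chosen after seeing the data like that without both WAT saline arrays (20, 19 and 16 genes called between tissues), 0 were called and 1 met the 2-fold rule.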

Other observations

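Further probe sets of 4 genes ran against the brightest one between tissues by over 0.4 on the log2 scale on either probe set. The dimmer one of Cpt2 averaged 56.0 in muscle, 42.0 in WAT and 58.8 in liver, that of Hadh 161 in muscle, 253 in WAT and 231 in liver, that of Decr1 745 in muscle, 606 in WAT and 561 in liver, and that of Acot2 84.0 in muscle, 41.0 in WAT and 38.6 in liver.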
